A study of Drosophila melanogaster with 18 samples.

Results

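The genes described here are CG3603, CG17177, RN-tre, Ntf-2r, skd, rdx, spir, CG15765, CG3706 and CG8036 of Drosophila melanogaster, 10 of the 11981 genes that had a probe set of their own on the Affymetrix GeneChip Drosophila Genome 2.0. They were selected on the measured expression in these same arrays, chosen because the level in MLX males differed from that in both Control and CDX males, or because MLX males stood at one end of the order CDX, Control, MLX. The differences between treatments were therefore what selected these genes, and they are given below as a description with no test. The 10 genes were covered by 18 of the 18769 probe sets that are not Affymetrix controls. RN-tre had 4 probe sets, spir had 3, skd, rdx and CG15765 had 2 each, and the other 5 genes had 1 each. For each gene the probe set with the smallest unadjusted p in the 2 comparisons with MLX males was taken as the one the choice rested on, and it is called the leading probe set. The remaining 8 are called the other probe sets.

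RNA of whole adult males was measured on 18 arrays, 6 for each of 3 treatments and 2 for each of 3 populations in a treatment. All populations came from the outbred LHm stock, and the males were at day 14 after egg laying, which is 4 days after eclosion. Control males had the usual transmission, with the X-chromosome from the mother and the Y-chromosome from the father. CDX males were the sons of Control fathers and females with a compound double X (DX). Their X-chromosome came from the father, for a single generation, and their Y-chromosome from the DX mother. The paper states that these Y-chromosomes came from populations under male-limited X evolution and could have evolved there. MLX males came from populations in which the X-chromosome had passed from father to son through DX females over many generations, apart from a few males returned each generation from recombination boxes, where X-chromosomes also passed through females. MLX and CDX males thus shared a DX mother, a paternal X-chromosome and a Y-chromosome from MLX populations, whereas Control males had none of these. The labels name 1 male for each array, whereas the methods describe a separate pool of males for each array, and neither states whether populations with the same number are related across treatments. Values are log2 expression after RMA (robust multi-array average) by the authors, so that a difference of 1 is a doubling. In whole males, a change in the number of cells of a type cannot be told apart from a change in the RNA of each cell.

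The genes belong to separate cellular processes. The product of skd is Med13, which ties the kinase module (with Cdk8, CycC and the product of kto) to the Mediator complex, the link between transcription factors and RNA polymerase II. The product of rdx (roadkill) is a BTB adaptor that brings Ci, the transcription factor of the Hedgehog pathway, to Cullin-3 for degradation. Spire, the product of spir, nucleates actin filaments and works together with the formin Cappuccino in the oocyte. RN-tre belongs to the TBC proteins, which switch Rab GTPases off in membrane traffic. Ntf-2r is a retroposed copy of Ntf-2, whose protein carries Ran into the nucleus. CG8036 encodes a transketolase, an enzyme of the non-oxidative branch of the pentose phosphate pathway, and CG3603 a member of the short-chain dehydrogenases. No role is given here for CG17177, CG15765 and CG3706. CG3603, CG15765 and CG3706 lie on the X, which held 15.73% of the 11883 genes placed on an arm. Ntf-2r and spir lie on 2L, RN-tre on 2R, CG17177 and skd on 3L, and rdx and CG8036 on 3R.

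Across the whole table, limma with population as a random block called 0 of 18769 probe sets at an adjusted p under 0.05 in each of the 3 comparisons, a share of 0.0%. At an unadjusted p under 0.05 there were 787 between MLX and Control, 490 between MLX and CDX and 560 between CDX and Control, and population means in place of the block also gave 0 calls after adjustment. Arrays taken as independent samples, which ignores that 2 arrays share a population, gave 1 call, CG3603 between MLX and CDX, and 0 in the other 2 comparisons. CG3603 was picked on the treatment differences, so this call is no test of it. The array medians ran from 6.96 to 7.08. Genes of yolk and eggshell, which are female tissue, had a mean log2 expression (over 18 of 21 listed genes) of 6.38 to 7.28 on 6 arrays, namely 1 Control, 3 CDX and 2 MLX arrays, and of 5.32 to 5.77 on the other 12. In 2 of the other marker lists the MLX arrays lay toward one side. The mean of 16 of 22 listed muscle genes was 11.26 to 11.45 on the MLX arrays, against 11.06 to 11.32 in Control and 11.09 to 11.31 in CDX. Of these, 13 had a higher mean in MLX than in Control and 3 a lower one, and the widest gaps were in TpnC4 (10.32 against 9.66), fln (9.59 against 9.11) and Act88F (9.94 against 9.56). The mean of 4 of 7 listed genes of fat body and haemolymph was 8.18 to 8.73 in MLX, against 8.61 to 9.16 in Control and 8.64 to 8.97 in CDX, of which Lsp2 had a mean of 9.66 in MLX, 11.39 in Control and 10.93 in CDX and did not pass the test. The other 3 genes of this list were nearly level, with apolpp at 14.35 in MLX and 14.39 in Control, Fbp1 at 4.95 and 5.04, and Fbp2 at 4.82 and 4.87. The defining markers Mhc and Lsp1beta were not analysed here. The 3' signal of the control transcripts exceeded their 5' signal by 1.38 (log2) in MLX males, against 1.49 in Control and 1.48 in CDX males.

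In MLX males 7 of the 10 genes were higher than in both other treatments (CG3603, RN-tre, Ntf-2r, skd, rdx, spir and CG15765) and 3 were lower (CG17177, CG3706 and CG8036). The difference was large for CG17177, at 3.02-fold below Control and 3.58-fold below CDX, and lay between 1.09-fold and 1.42-fold for the other genes. All 6 MLX arrays lay outside the range of the 6 Control arrays for 1 of the 10 leading probe sets, that of CG3603, where 0.357% of all probe sets did so. They lay outside the range of the 6 CDX arrays for 5 of 10 (CG3603, skd, rdx, CG15765 and CG8036), where 0.16% of all probe sets did so. CDX and Control arrays overlapped for each of the 10, and 0.144% of all probe sets had no overlap there. By population means, the 3 MLX populations did not overlap with the 3 Control populations for 8 of 10 leading probe sets, with skd and rdx the exceptions, beside 8.51% of all probe sets. They did not overlap with the CDX populations for 10 of 10, beside 6.14%, and CDX did not overlap with Control for 2 of 10, skd and CG15765, beside 8.25%. These counts follow from how the genes were chosen, and nothing is read from them.

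**Figure D1:**
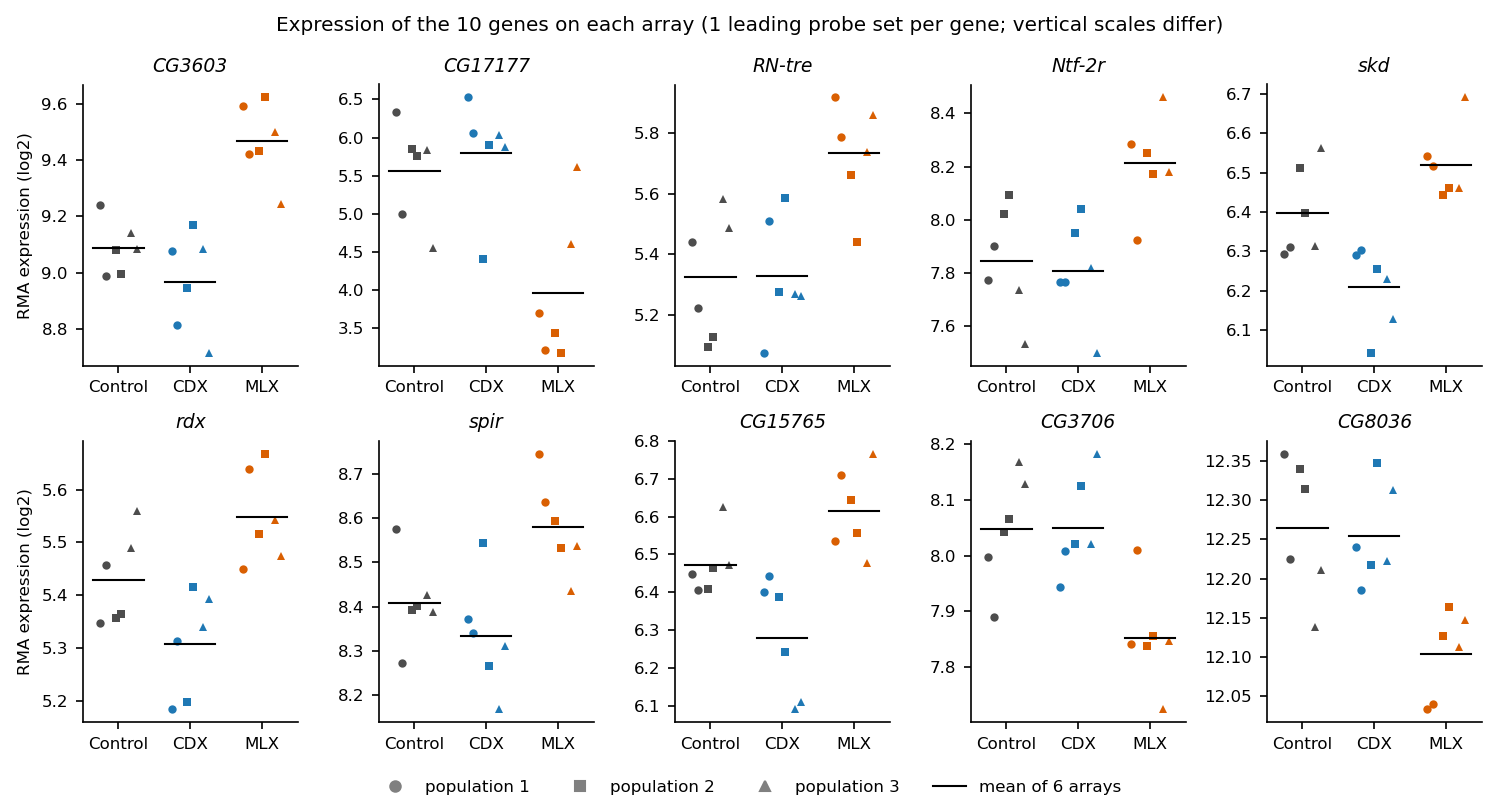
RMA expression (vertical axes, log2, each panel with its own scale) of the leading probe set of each gene in Control, CDX and MLX males, with 1 point per array, a symbol for each population and a line at the mean of 6 arrays. CG3603 is the 1 gene whose 6 MLX arrays are clear of both other treatments, while CG17177 is low on 4 MLX arrays and higher on the 2 arrays of MLX population 3.

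CG3603 was the gene with the clearest separation. Its values in Control ran from 8.99 to 9.24 with a median of 9.08, in CDX from 8.71 to 9.17 with a median of 9.01, and in MLX from 9.24 to 9.62 with a median of 9.46. The lowest MLX array, the second of population 3, was only just above the highest Control array, and all 6 exceeded every array of both other treatments. The MLX population means were 9.51, 9.53 and 9.37, and the Control means were 9.11, 9.04 and 9.11. The MLX mean was 9.47 ± 0.14 (SD, n = 6 arrays), against 9.09 ± 0.09 in Control and 8.97 ± 0.18 in CDX. This gave a difference of 0.38 (standard error 0.09) to Control and 0.50 (standard error 0.09) to CDX. Without the 6 arrays high in yolk and eggshell genes these were 0.40 and 0.59, and with a covariate for the 3' minus 5' difference 0.31 and 0.43.

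CG17177 showed the largest difference and also the largest spread of the 10 genes. The Control arrays ran from 4.56 to 6.34 with a median of 5.80, and the CDX arrays from 4.40 to 6.53 with a median of 5.96. The 4 arrays of MLX populations 1 and 2 stood at 3.70, 3.21, 3.44 and 3.18, below every Control and CDX array. The 2 arrays of MLX population 3 stood at 4.61 and 5.62, within the range of the other treatments. The MLX mean was 3.96 ± 0.97 (SD, n = 6 arrays), against 5.56 ± 0.65 in Control and 5.80 ± 0.72 in CDX, and the differences of MLX were -1.60 (standard error 0.44) to Control and -1.84 (standard error 0.44) to CDX. Without MLX population 3 they were -2.17 and -2.42. Single arrays of the other treatments were also low, with 1 CDX array of population 2 at 4.40 beside its sister array at 5.90. The deposited values carry no detection call, so it is not known whether the lowest MLX values lie above background.

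RN-tre and Ntf-2r stood apart from Control and CDX by like amounts, while the difference of CDX to Control was 0.0046 for RN-tre and -0.04 for Ntf-2r. RN-tre ran from 5.09 to 5.58 in Control (median 5.33), from 5.08 to 5.58 in CDX (median 5.27) and from 5.44 to 5.92 in MLX (median 5.76). A single MLX array, in population 2, lay within the range of the other treatments. The differences of MLX were 0.41 (standard error 0.11) to Control and 0.40 (standard error 0.11) to CDX. Without Control population 2, whose mean of 5.11 was the lowest, the first of these was 0.30.

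Ntf-2r, the retroposed gene, ran from 7.54 to 8.09 in Control (median 7.84), from 7.50 to 8.04 in CDX (median 7.79) and from 7.92 to 8.46 in MLX (median 8.22). Here too 5 of 6 MLX arrays exceeded all arrays of both other treatments, the exception being the second array of population 1. The populations of Control and of CDX followed the same order, 2 above 1 above 3 (8.06, 7.84 and 7.64 in Control, 7.99, 7.77 and 7.66 in CDX). In MLX the order was 3 above 2 above 1, at 8.32, 8.21 and 8.11. The differences of MLX were 0.37 (standard error 0.11) to Control and 0.40 (standard error 0.11) to CDX. Whether its probe set also takes up signal from the parent gene Ntf-2 was not tested, and the level of Ntf-2r is uncertain to that extent.

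CG3706 and CG8036 were lower in MLX by small amounts. CG3706, on the X, ran from 7.89 to 8.17 in Control (median 8.05), from 7.94 to 8.18 in CDX (median 8.02) and from 7.72 to 8.01 in MLX (median 7.84). Apart from the second array of population 1, at 8.01, the MLX arrays lay below all others. Its difference was -0.20 (standard error 0.06) to Control and -0.20 (standard error 0.06) to CDX, and Control and CDX had the same mean of 8.05.

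The transketolase gene CG8036 ran from 12.14 to 12.36 in Control (median 12.27), from 12.19 to 12.35 in CDX (median 12.23) and from 12.03 to 12.16 in MLX (median 12.12). All 6 MLX arrays were below the CDX arrays, and 4 of 6 were below the Control arrays, where population 3 was the lowest at 12.17. The SD of the arrays was 0.06 in MLX and CDX and 0.09 in Control. The difference of MLX was -0.16 (standard error 0.05) to Control, a 1.12-fold lower level, and -0.15 (standard error 0.05) to CDX.

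The remaining 4 genes, skd, rdx, spir and CG15765, followed the order CDX, Control, MLX. For skd the CDX arrays ran from 6.04 to 6.30 (median 6.24), the Control arrays from 6.29 to 6.56 (median 6.36) and the MLX arrays from 6.44 to 6.69 (median 6.49). MLX and CDX were thus apart on every array, while only 1 MLX array lay above all Control arrays and Control populations 2 and 3, at 6.46 and 6.44, were close to the MLX populations at 6.53, 6.45 and 6.58. The mean of MLX exceeded that of CDX by 0.31 (standard error 0.07) and that of Control by 0.12 (standard error 0.07), and CDX differed from Control by -0.19 (standard error 0.07). The difference of MLX to Control was 0.07 without Control population 1.

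For rdx the arrays ran from 5.18 to 5.42 in CDX (median 5.33), from 5.35 to 5.56 in Control (median 5.41) and from 5.45 to 5.67 in MLX (median 5.53). Again MLX was clear of CDX on every array, whereas 2 of 6 MLX arrays exceeded all Control arrays and the mean of Control population 3, at 5.53, lay among the MLX means of 5.54, 5.59 and 5.51. The difference of MLX was 0.24 (standard error 0.06) to CDX and 0.12 (standard error 0.06) to Control. Without the 6 arrays high in yolk and eggshell genes it was 0.16 to CDX and 0.09 to Control.

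For CG15765, on the X, the arrays ran from 6.09 to 6.44 in CDX (median 6.31), from 6.41 to 6.62 in Control (median 6.46) and from 6.48 to 6.77 in MLX (median 6.60). The MLX populations were close together at 6.62, 6.60 and 6.62, while the CDX populations were at 6.42, 6.31 and 6.10. The distance between MLX and CDX, 0.34 (standard error 0.07), was therefore widest for CDX population 3 and was 0.25 without it. The difference of MLX to Control was 0.14 (standard error 0.07).

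The actin nucleator gene spir was the 1 of these 4 whose MLX arrays overlapped with those of CDX. Its arrays ran from 8.17 to 8.54 in CDX (median 8.33), from 8.27 to 8.57 in Control (median 8.40) and from 8.44 to 8.75 in MLX (median 8.56), and 3 of 6 MLX arrays exceeded all arrays of each other treatment. By population the separation was complete, since the lowest MLX mean, 8.49 in population 3, exceeded the highest of Control, 8.42, and of CDX, 8.40. The difference of MLX was 0.25 (standard error 0.07) to CDX and 0.17 (standard error 0.07) to Control. With a covariate for the 3' minus 5' difference it was 0.19 and 0.11.

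The other probe sets of the same genes had smaller differences than the leading ones, apart from 1 of spir, as follows from the choice of the leading ones by their p. None of the 8 had MLX arrays clear of Control or CDX arrays, beside 0.357% and 0.16% of all probe sets, and nothing is read from this. Of the 8, 1 had MLX population means clear of those of Control, near the 8.51% of all probe sets, namely a probe set of spir (1631571_a_at). That probe set was at 7.74 ± 0.10 (SD, n = 6 arrays) in MLX, 7.56 ± 0.10 in Control and 7.65 ± 0.15 in CDX, a difference of 0.18 (standard error 0.07) to Control, close to the 0.17 of the leading probe set. Its difference to CDX was 0.08, against 0.25. The third spir probe set (1635630_a_at) was level, at 8.38, 8.38 and 8.39 in Control, CDX and MLX.

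The 3 other RN-tre probe sets differed between MLX and Control by 0.20 (1625146_a_at), 0.09 (1622996_at) and 0.0067 (1631687_at), and between MLX and CDX by 0.07, 0.06 and -0.0027, where the leading one (1633470_at) was at 0.41 and 0.40. For skd, the second probe set (1631516_s_at) was at 7.10 in MLX, 7.06 in Control and 7.03 in CDX. For rdx, the second probe set (1636254_s_at) was at 8.04, 8.08 and 8.05, so that the direction was not that of the leading one. The second probe set of CG15765 (1625715_at) was at 4.07, 4.02 and 4.05, a difference of 0.05 to Control and 0.02 to CDX. Which transcripts of a gene each probe set covers is not stated in the files, so the values of these 5 genes are given for single probe sets. CG3603, CG17177, Ntf-2r, CG3706 and CG8036 had no second probe set to set beside the first.

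**Figure D2:**
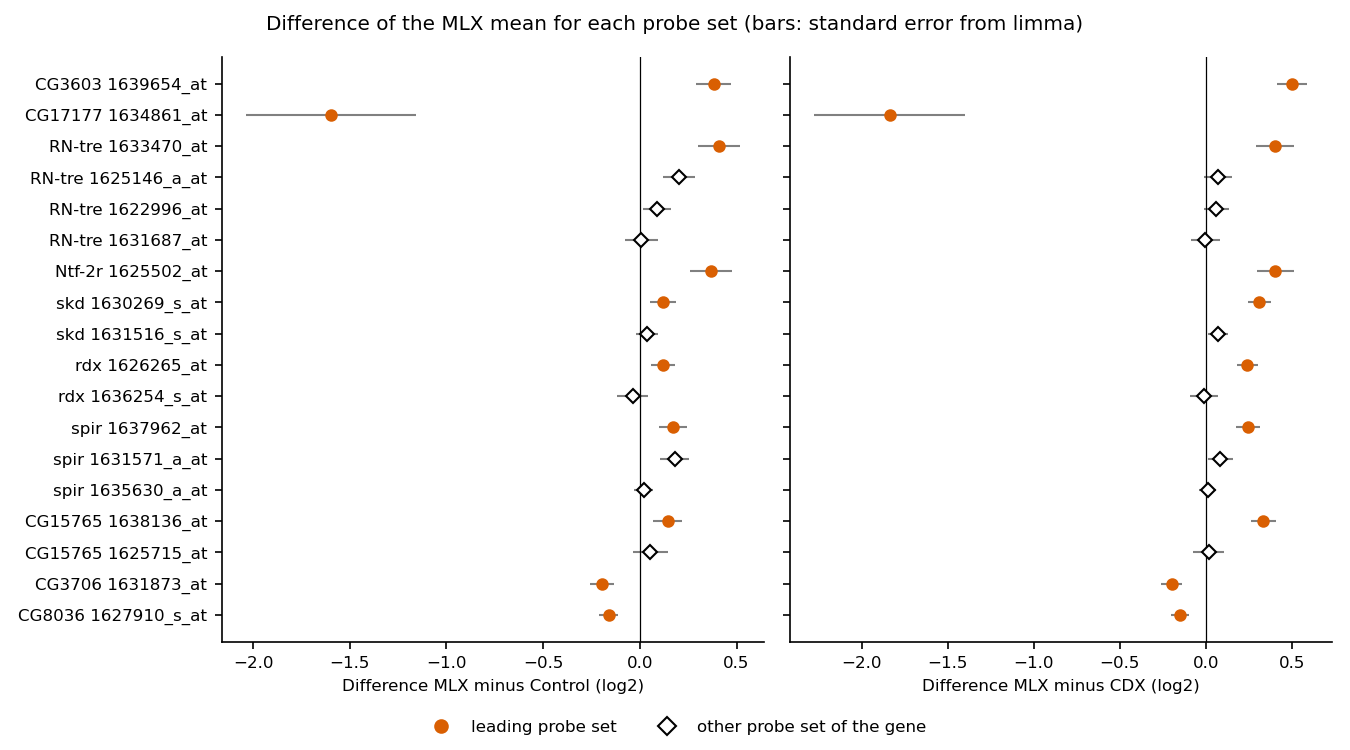
Difference of the MLX mean to Control (left) and to CDX (right) on the log2 scale (horizontal axes) for the 18 probe sets, with the standard error from limma as bars. Filled circles are the leading probe sets, by which the genes were chosen, and open diamonds the 8 others, which lie between -0.04 and 0.20.

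Within treatments the leading and other probe sets of a gene could be compared without use of the treatment differences. Over the 18 deviations of arrays from their treatment means, the leading probe set of spir had a Pearson r of 0.70 with the first other one and of -0.07 with the second. For rdx the r was 0.57. RN-tre had 0.56, 0.39 and -0.02 with its 3 others, skd had -0.07 and CG15765 had -0.04. These r are descriptions over 18 arrays that share 9 populations.

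The spread between populations of 1 treatment was tested for each probe set. The genes were chosen on treatment differences, but the p that picked the leading probe sets also depends on the spread within treatments. A small spread therefore favoured these probe sets. A moderated F test in limma of the 6 differences between populations of the same treatment passed at an adjusted p under 0.05 for 253 of 18769 probe sets, a share of 1.35%, and the number ran from 81 to 288 with 1 population left out, being 81 and 152 without MLX populations 1 and 3 and 130 and 109 without CDX populations 1 and 2. None of the 18 probe sets of the 10 genes was among them, and 3 had an unadjusted p under 0.05, near the 16.8% of all probe sets below it. Since a small spread favoured the leading probe sets, nothing is read from this. The smallest adjusted p was 0.109, for the level RN-tre probe set (1631687_at), whose Control populations stood at 7.49, 7.70 and 7.83 and whose MLX populations stood at 7.57, 7.61 and 7.86. Among the leading probe sets, CG17177 had an adjusted p of 0.242 and Ntf-2r one of 0.263 from limma. In CG17177 MLX population 3 had a mean of 5.11 and populations 1 and 2 had 3.46 and 3.31, beside an SD of 0.64 between the 2 arrays of a population, and this single difference was not tested.

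CG17177 had an SD of 0.69 between the population means of a treatment, and the other 9 leading probe sets had 0.06 to 0.17. For CG3603 the SD was 0.16 between arrays and 0.07 between population means. The SD between arrays was also the larger for skd (0.10 against 0.08), rdx (0.09 against 0.06) and spir (0.11 against 0.08). It was the smaller for CG17177 (0.64 against 0.69), RN-tre (0.15 against 0.16) and Ntf-2r (0.15 against 0.17). The same held for CG15765 (0.098 against 0.102), CG3706 (0.07 against 0.08) and CG8036 (0.055 against 0.061). Means of 2 arrays have a smaller SD than single arrays even where populations do not differ. CG3706 and CG8036 had the smallest SD between arrays, 0.07 and 0.06. No single MLX population stood farthest out in all genes. MLX population 1 was the farthest from the other treatments for 4 genes (RN-tre, spir, CG15765 and CG8036), population 2 for 3 (CG3603, CG17177 and rdx) and population 3 for 3 (Ntf-2r, skd and CG3706). Population 3 was the nearest to the other treatments for 4 genes (CG3603, CG17177, rdx and spir), population 2 for 4 and population 1 for 2.

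**Figure D3:**
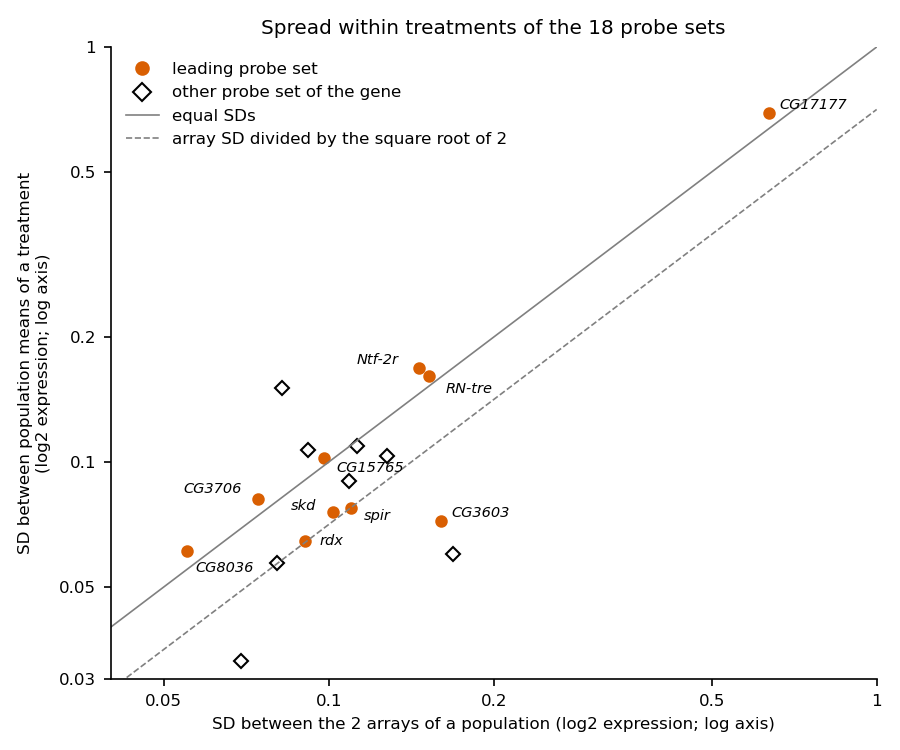
SD between the population means of a treatment (vertical axis, log2 expression, log scale) against the SD between the 2 arrays of a population (horizontal axis, log2 expression, log scale) for the 18 probe sets, with the leading probe sets named. The dashed line is where means of 2 arrays would lie with no spread of populations beyond that of arrays, and CG17177 stands apart from the rest on both axes at 0.64 and 0.69.

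Whether the 10 genes varied together was asked within treatments, after each treatment's mean was subtracted, for the 45 pairs of leading probe sets. Over the 18 arrays the Pearson r of the pairs had a median of 0.016 and ran from -0.53 to 0.55, and 24 of 45 were positive. The median absolute r was 0.178, beside 0.199 for the 10 genes with all other probe sets (187510 pairs). The 24 pairs that moved the same way in MLX males had a median r of -0.031, and the 21 pairs that moved opposite ways one of 0.069. For 9 of 45 pairs the r had the same sign in each of the 3 treatments. Over the 9 differences between the 2 arrays of a population the median r was 0.099.

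Over the 9 population means 1 of 45 pairs, CG3603 with CG17177, had an exact permutation p under 0.05 (two-sided, over all orders of populations within treatments), and 0 remained after Benjamini-Hochberg adjustment over the 45 pairs. The smallest exact p that these orders allow is 0.00463, which for a single pair gives an adjusted p of 0.208, so that 1 pair alone could not have passed. For CG3603 with CG17177 r was -0.89 (exact p = 0.0463, adjusted 0.625) and Spearman's rho -0.90 (exact p = 0.0324), and populations with more CG3603 had less CG17177 for their treatment. Thus MLX population 3 was the lowest of its treatment in CG3603, at 9.37, and the highest in CG17177, at 5.11. Left-out populations moved r between -0.96 and -0.80, and without the 2 populations farthest out in CG3603 alone it was -0.87. Over the 18 arrays, however, r was -0.11, and over the differences between the 2 arrays of a population it was 0.34. By treatment, the r over 6 arrays was -0.68 in MLX, 0.56 in Control and 0.16 in CDX males.

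The next pair, Ntf-2r with CG8036, had an r of 0.76 over populations (exact p = 0.0602) and a rho of 0.87 (exact p = 0.0278). Its r was 0.51 without the 2 populations farthest out in Ntf-2r alone, and 0.31 over arrays. Over the 18 arrays the highest r was that of rdx with CG3706, at 0.55, with 0.44 in MLX, 0.39 in Control and 0.81 in CDX males. The lowest was that of Ntf-2r with CG3706, at -0.53, with -0.98, -0.39 and -0.27 in the same order. Neither pair had an exact p under 0.05 over populations (0.13 and 0.412), where r was 0.68 and -0.42. For rdx with CG3706 the sign opposed that of the treatment differences, since rdx was higher and CG3706 lower in MLX males. CG3603 and spir, both higher in MLX, had an r of 0.76 over populations (exact p = 0.144) and of 0.12 over arrays.

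**Figure D4:**
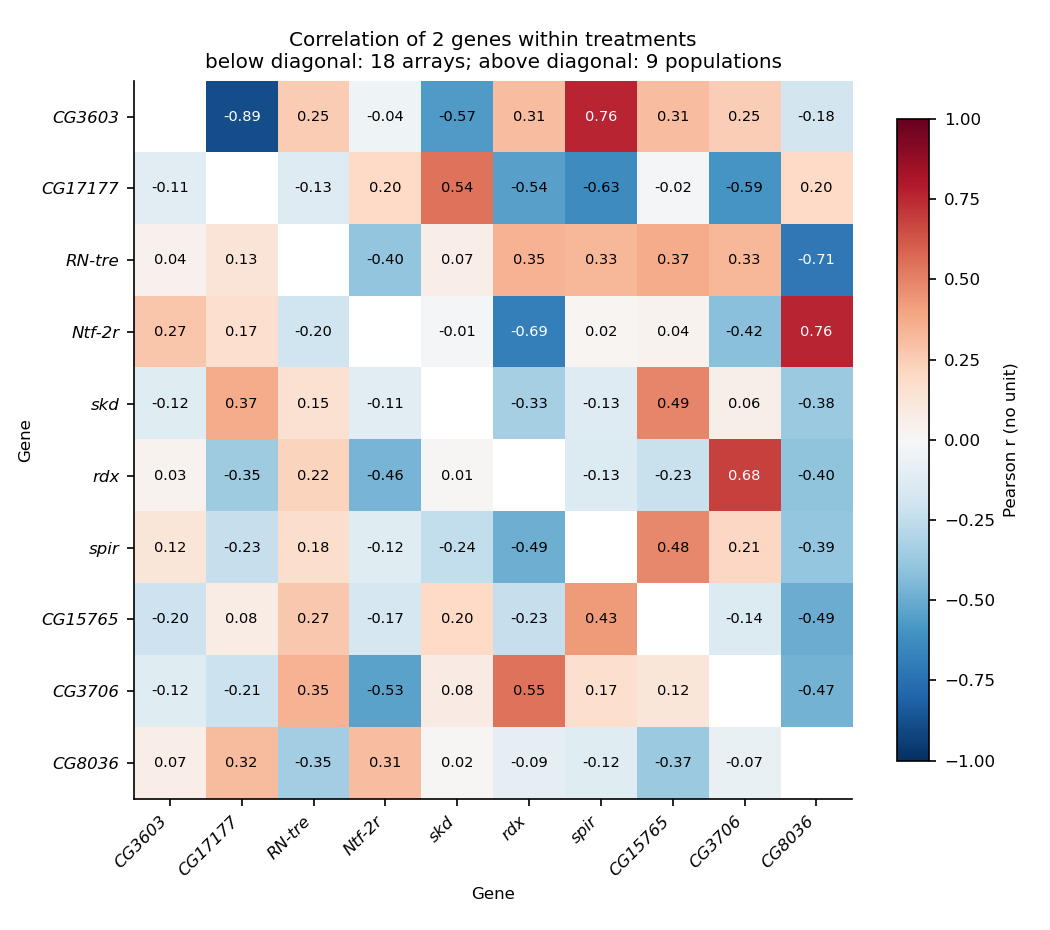
Pearson r of each pair of the 10 genes within treatments (both axes, genes; colour and number, r without unit), over 18 array deviations below the diagonal and over 9 population deviations above it. Values of both signs are scattered over the 45 pairs, and the strongest over populations, -0.89 for CG3603 with CG17177, is -0.11 over arrays.

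The marker lists and the 3' minus 5' difference were set against each leading probe set in the same way. Of 60 relations over the 9 population means, 2 had an exact permutation p under 0.05 and 0 passed after Benjamini-Hochberg adjustment, where the smallest adjusted p was 0.686. Here a single relation could not have gone below an adjusted p of 0.278. One was spir with the 3' minus 5' difference, with an r of -0.81 (exact p = 0.0139) and a rho of -0.80 (exact p = 0.0231). Its r was -0.89 without the 2 populations farthest out in the 3' minus 5' difference alone. The other was skd with the testis genes, with an r of 0.78 (exact p = 0.0463) and a rho of 0.73 (exact p = 0.0556). Its r was 0.62 without the 2 populations farthest out in the testis genes alone. CG17177 had an r of 0.69 with the mean of the fat body and haemolymph genes (exact p = 0.0648), of which Lsp2 had the lower level in MLX males given above. Next in order of p was skd with the muscle genes, with an r of -0.77 (exact p = 0.0694), although both had higher means in MLX males. RN-tre followed with the yolk and eggshell genes, with an r of -0.79 (exact p = 0.088). The part of these lists in the treatment differences was not tested.

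The genes most like each member were sought among 13628 probe sets of single other genes, by Pearson r over the 18 deviations from treatment means. Each r named is the highest or next of 13628 over only 18 arrays, so high values also occur by chance. None of them was tested. The highest values were found for CG17177, with tyf at 0.89 and lz at 0.87, and for Ntf-2r, with Vps29 at 0.86 and Sce at 0.85. The leading probe set of skd was most like XRCC1 and bip1, both at 0.85, and that of spir most like CG17782 at 0.84 and Vha44 at 0.82. CG3706 was most like meep at 0.83 and CG42296 at 0.78, CG15765 most like LpR1 at 0.82 and mri at 0.80, and CG8036 most like CG33298 at 0.81 and thetaTry at 0.80. CG3603 was most like CG34398 at 0.79 and CG3880 at 0.78, RN-tre most like lncRNA:CR31526 and nAChRalpha4, both at 0.77, and rdx most like Cpr49Ac at 0.76 and CR10032 at 0.75. No gene was named for 2 of the 10. Where another probe set of the gene had the largest mean, its nearest genes were CG8176 at 0.91 and CG34384 at 0.89 for RN-tre, VAChT at 0.82 and Cpr65Ec at 0.81 for skd, and aPKC at 0.90 and Pak at 0.89 for rdx. These differ from the nearest genes of the leading probe sets.

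No partner gene of the members was called. Of 100 measured partner genes in 7 lists, 0 passed in limma after adjustment in any of the 3 comparisons, and no list had more than 1 gene at an unadjusted p under 0.05 in any of them. Over all 18769 probe sets, 9620 had a higher mean in MLX than in Control and 9578 a higher mean than in CDX. Of 26 other Mediator subunits, 18 had a higher mean in MLX than in Control males, with a median difference of 0.04 beside 0.0023 over all probe sets, and 1 had an unadjusted p under 0.05 from limma. This was MED20, at 7.37 ± 0.11 (SD, n = 6 arrays) in MLX, 7.22 ± 0.10 in Control and 7.31 ± 0.10 in CDX, a difference of 0.15. MED14 was at the other end, with a difference of -0.11. Between MLX and CDX, where skd itself differed by 0.31, the median of the subunits was 0.02 and the range -0.08 to 0.09. Between CDX and Control, where skd itself differed by -0.19, 19 of 26 subunits were higher in CDX, with a median of 0.02 beside 0.0011 over all probe sets.

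Of 13 genes of the Hedgehog pathway and Cullin-3, 5 were higher in MLX than in Control, from -0.08 for dlp, a glypican that binds Hedgehog, to 0.11 for ihog, a Hedgehog co-receptor. Of 14 genes of actin nucleation and turnover 7 were higher and 7 lower, between -0.08 for Arpc2 and 0.04 for Arpc4, both subunits of the Arp2/3 complex. Of 20 Rab GTPases 14 were higher, from -0.08 for Rab2 to 0.17 for RabX5. Between MLX and CDX, where RN-tre itself differed by 0.40, 10 of these were higher and 10 lower, with a median of -0.0043. Of 15 genes of nuclear transport 9 were higher in MLX than in Control, from -0.12 for Ran to 0.08 for Kap-alpha3, an importin alpha.

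The list with CG8036 held 7 measured genes, namely Taldo, Rpi, Rpe and CG5103 of the pentose phosphate pathway, and Pgi, Men and Idh, which are enzymes outside it. Of the 7 genes, 6 had a lower mean in MLX than in Control, with a median of -0.04, and 5 a lower mean than in CDX, with a median of -0.07. The 4 measured genes of the pathway all had a lower mean in MLX than in Control, with a median of -0.03. Against CDX, 3 of 4 had a lower mean, with a median of -0.06. Over all probe sets the median absolute difference of MLX was 0.05 to Control and 0.04 to CDX. Zw and Pgd of the list were not among the measured genes. Taldo, the transaldolase that acts beside transketolase in the non-oxidative branch, was the lowest. It stood at 12.46 ± 0.06 (SD, n = 6 arrays) in MLX, 12.59 ± 0.11 in Control and 12.57 ± 0.06 in CDX, a difference of -0.13 to Control with an unadjusted p of 0.0202 from limma. It was the 1 gene of this list at an unadjusted p under 0.05 in that comparison, and Idh, the NADP-dependent isocitrate dehydrogenase, was at the other end of the list with 0.08. Of 5 short-chain dehydrogenases beside CG3603, 1 was higher in MLX than in Control, Pdh at 0.14, and sni was the lowest at -0.13.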

How the data were processed

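The deposited values are log2 expression, which the authors computed by RMA in the package affy of BioConductor. All 18 arrays were used as deposited, no arrays were identical, and their number limits the precision. No fit used the 183 Affymetrix controls. Genes came from the platform annotation, updated through RefSeq (Release 6 plus ISO1 MT) for 13543 of the 13646 probe sets with 1 gene, while 402 had several genes and 4721 none. The members and the lists were chosen with earlier results of these data known, and the lists hold no gene chosen for how it moved. Treatment was fitted, and population within treatment (9 levels) was a random block (limma 3.58.1 in R 4.3.3, duplicateCorrelation, eBayes), with Benjamini-Hochberg adjustment over 18769 probe sets at a threshold of 0.05, and the fits were tested on simulated data. By the methods, each array held its own group of males.

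For a list gene with several probe sets, the one of largest mean stood for it. Deviations from treatment means were correlated within treatments, with exact permutation of the 9 populations. All probe sets of the 10 genes are given. Of the partner genes, the highest and lowest difference of MLX to Control in each list are named, and of the other genes the 2 with the highest r. Alternatives were population means, independent arrays, median centring, repeated quantile normalization, removal of probe sets in the lowest 25% by mean, robust moderation, replicate blocks, 2 covariates, medians, and each population left out. One was added after seeing the data, the removal of 6 arrays high in yolk and eggshell genes. These steps ran in Python 3.11.15 with pandas 2.3.3, scipy 1.17.1, numpy 2.4.6 and matplotlib 3.10.9.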

Additional observations from a re-analysis of the deposited data

Results flagged for a closer look

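Among 54 groups of 6 arrays (18 probe sets in 3 treatments), 2 held an array whose gap to the others exceeded Dixon's critical value at the 95% level, and chance flags about 1 in 20 groups. The first array of CDX population 2 stood at 4.40 (4.4049) in CG17177, below the other CDX arrays at 5.87 to 6.53. The first array of Control population 3 stood at 6.62 (6.6244) in the leading probe set of CG15765, above the other Control arrays at 6.41 to 6.47, and was the 1 Control array above the lowest MLX array.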

How the results depend on the processing

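The differences of the 10 leading probe sets between MLX and the other treatments kept their direction in all 420 recalculations, and 417 moved by less than the SD between population means. The 3 that moved further were CG3603 to Control, at 0.31 with a covariate for the 3' minus 5' difference, and, without the 6 arrays high in yolk and eggshell genes, CG3603 to CDX at 0.59 and rdx to CDX at 0.16. Many of the 420 could not move a difference of means. These were population means, independent arrays, the removal of low probe sets, replicate blocks, robust moderation, and a left-out population of the treatment outside the comparison. The genes were also picked on these differences, so nothing is read from the count. By population means, 8 of 10 leading probe sets did not overlap between MLX and Control (8.51% of all probe sets), 10 of 10 between MLX and CDX (6.14%) and 2 of 10 between CDX and Control (8.25%). These counts follow from how the genes were chosen, and nothing is read from them here either. Arrays taken as independent, which ignores their shared populations, gave 1 call between MLX and CDX, CG3603, a gene picked on the treatment differences. Leaving out 1 population gave 0 to 4 calls between MLX and Control, 0 to 1 between MLX and CDX and 0 between CDX and Control. These were 4 without MLX population 3 (Lsp2, SpdS, gb and 1 probe set of several genes), 2 without Control population 3 (Lsp2 and gro) and 1 without MLX population 1 (a probe set of several genes), named after their values were seen and none of them among the 10 genes. Partner genes gave 0 calls throughout. Same-numbered populations of 2 treatments correlated at -0.14 to 0.38 in their deviations (7 of 9 positive) and others at -0.33 to 0.22 (7 of 18 positive). No source pairs the numbers and not every same-numbered r was over 0.1, so they were not taken as pairs, and the population number as a replicate block gave 0 calls in each comparison (964, 663 and 731 at an unadjusted p under 0.05), as did the array number as a replicate block. The number of probe sets with differences between populations was 253 and ran from 81 to 288 with 1 population left out, where fewer arrays are fitted, with 81 without MLX population 1, 109 and 130 without CDX populations 2 and 1, and 152 without MLX population 3. Pairs of the 10 genes at an unadjusted exact permutation p under 0.05 numbered 1 in the main setting, 2 over arrays permuted within treatments, 4 after median centring and 0 to 3 with 1 population left out. They numbered 0 without Control population 2 or MLX populations 1 or 3, 2 without MLX population 2 and 3 without CDX populations 2 or 3, and the cause was not tested. With 2 arrays per population and 3 populations per treatment, the number of arrays limits what can be detected.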
